A study of Homo sapiens with 12 samples.

Results

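Long noncoding RNA (lncRNA) genes were taken from the expression table by their symbols: those that begin with LINC or SNHG, those that end with -AS and a digit, and MALAT1, NEAT1 and GAS5. The rule used names and no measured value, and it found 148 of the 11529 genes in the table. They comprised 93 antisense genes, 39 LINC genes, 14 SNHG genes and GAS5 counted together, and the nuclear RNAs MALAT1 and NEAT1. The samples were of MDA-MB-468 cells and of MDA-MB-231 cells, both triple-negative breast cancer lines, and in each line 3 samples labelled wild type (WT) were set against 3 samples with SMARCA4 knocked out (KO), 12 in all. According to the study's methods the KO cells were puromycin-selected pools, not clones, that carried Cas9 with a SMARCA4 guide. The labels call the WT samples wild type and Control. In its blots the study sets parental WT cells apart from a control that carried a nontargeting vector. For the sequenced samples its methods say WT and its figure says control. Whether the sequenced WT cells carried that vector is therefore not settled, and WT is used here as a label. SMARCA4 (BRG1) is an ATPase of the SWI/SNF chromatin remodelling complexes. The labels name no separate cultures, so p-values measure the spread between these samples, which may be technical.

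A lncRNA is transcribed and usually spliced like an mRNA but has no known long open reading frame. Some act as scaffolds in the nucleus, as NEAT1 does for paraspeckles and MALAT1 does in nuclear speckles. Others, the SNHG genes and GAS5, carry small nucleolar RNAs (snoRNAs) in their introns, which guide the chemical modification of ribosomal RNA, while the spliced host transcript is often short-lived. An antisense gene is transcribed from the strand opposite a neighbouring gene and often starts beside that gene's promoter. Symbols are older than some findings: 11 of the 148 genes are now typed as protein coding, among them LINC00116 (MTLN, a mitochondrial micropeptide), LINC00493 (SMIM26) and LINC00998 (SMIM30). RefSeq placed at least 1 snoRNA gene inside 19 members, which are all 14 of the SNHG and GAS5 class and C17orf76-AS1 (now SNHG29), EPB41L4A-AS1, LINC00338 (SNHG20), LINC00888 (SNHG33) and THAP9-AS1.

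Every value is log2(FPKM + 1), where FPKM counts sequenced fragments scaled to the length of the transcript and the size of the library. FPKM values were computed back from it. A gene is said to rise or fall where the limma fit across all genes gave a Benjamini-Hochberg adjusted p under 0.05 and a log2 fold change beyond 0.5, as the study's methods set it. Between 11293 and 11362 genes were above 0 in each sample, and samples of a group correlated with r from 0.989 to 0.995. SMARCA4 itself fell by 1.16 on the log2 scale in MDA-MB-468 (SE 0.08, adjusted p = 0.0137) and by 1.57 in MDA-MB-231 (SE 0.06, adjusted p = 0.00143). All 8 epithelial markers were higher in WT MDA-MB-468 than in WT MDA-MB-231. Of 4 measured mesenchymal markers, 3 were lower in WT MDA-MB-468 and 1, CD44, was higher. VIM was at log2 10.35 in WT MDA-MB-231 against 1.82 in WT MDA-MB-468, and CD44 at 8.91 against 9.8. None of 8 leukocyte, endothelial and fibroblast markers was in the table. The table holds only genes with an average FPKM of at least 1.07 and a standard deviation (SD) of at least 1 over the 12 samples, so a lncRNA that is low everywhere or steady at a low level could not enter. Reads per sample are not given, so the depth is unknown.

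The members were low on the whole. The median of their mean levels was log2 2.87 in WT MDA-MB-231 and 2.85 in WT MDA-MB-468, against 4.14 and 4.16 over all genes. In WT MDA-MB-231, 18 members exceeded log2 5 and 19 were under log2 1; in WT MDA-MB-468 these counts were 21 and 20. Per length, the most abundant member in WT MDA-MB-231 was C17orf76-AS1, a snoRNA host, with 346, 392 and 446 FPKM in the 3 replicates. SNHG5 followed with 339, 320 and 372 FPKM. The ranges of these leading genes overlapped, so their order is not fixed. LINC00152 (CYTOR), GAS5, SNHG8 and SNHG1 came next with mean FPKM of 200, 194, 174 and 164, and neighbours in this order lay within the replicate spread of each other. LINC00152 has a near-identical copy, MIR4435-1HG, so its value is uncertain. In WT MDA-MB-468, GAS5 was highest with 322, 327 and 350 FPKM, above every WT value of C17orf76-AS1, which had 268, 302 and 317 FPKM. SNHG1 was next with a mean of 206 FPKM, followed by NEAT1 with 115, LINC00493 with 110 and SNHG6 with 88.9 FPKM. NEAT1 and LINC00493 overlapped.

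The WT cells of the 2 lines differed in most members. In WT MDA-MB-468 against WT MDA-MB-231, 115 of 148 members were called, which is 77.7%, and 64.1% of all genes were called. Higher were 55 members (37.2%, against 32.7% of all genes) and lower 60 (40.5%, against 31.4%). Since the table keeps only genes that vary across samples, a member with a low average had to differ between samples to be listed, and the members' share is no support for a property of lncRNAs. The lines differ in origin and in everything about their culture, so line and culture cannot be told apart.

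**Figure D1:**
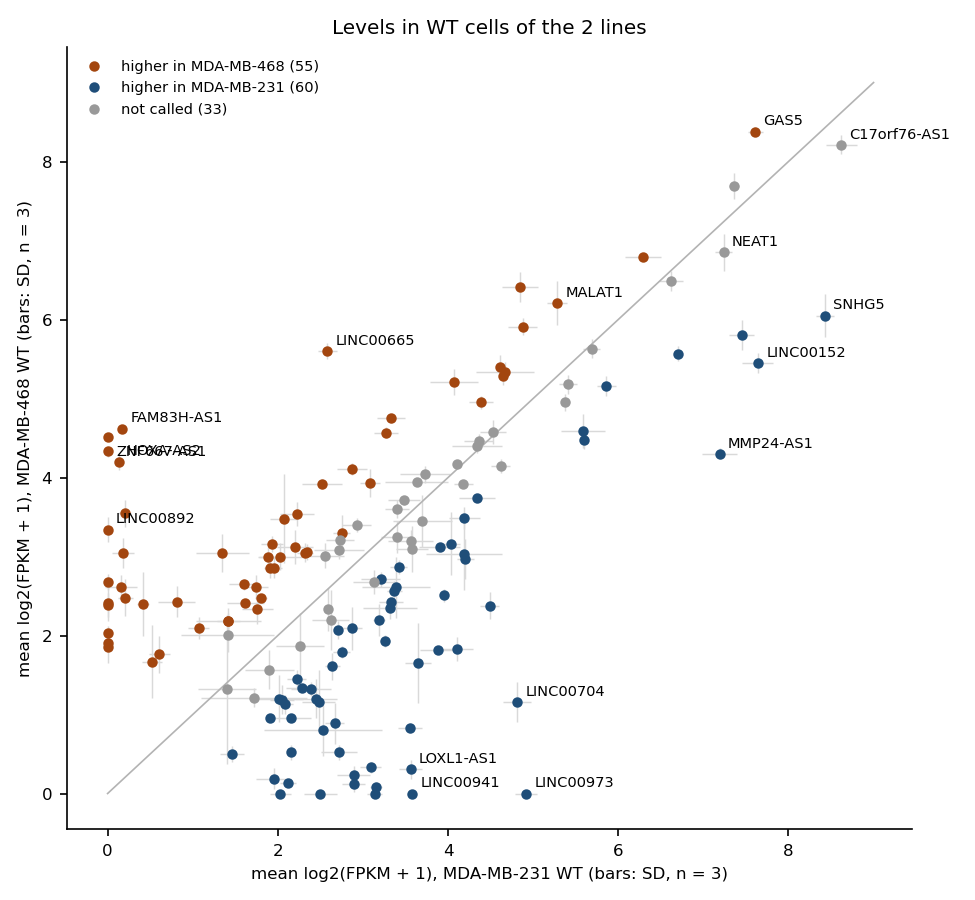
Mean level of each of the 148 genes in WT MDA-MB-231 (horizontal) and WT MDA-MB-468 (vertical), both as log2(FPKM + 1) with the SD of 3 samples; the diagonal marks equal levels. Coloured points are the 55 genes called higher in MDA-MB-468 and the 60 called higher in MDA-MB-231, and a column of points at the left edge and a row at the bottom are genes near 0 in 1 of the lines.

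Some members were detected in WT MDA-MB-468 and not in WT MDA-MB-231. ST8SIA6-AS1 was listed at 0 in all 3 WT samples of MDA-MB-231 and at log2 4.38, 4.24 and 4.36 in those of MDA-MB-468. LINC00892, LINC00925, HOXC-AS5 and MCF2L-AS1 were also listed at 0 in WT MDA-MB-231, with mean log2 levels in WT MDA-MB-468 of 3.34, 2.68, 2.41 and 2.39. ZNF667-AS1, antisense to a zinc finger gene, was at log2 0.04, 0.00 and 0.00 in WT MDA-MB-231 and at 4.54, 4.48 and 4.51 in WT MDA-MB-468, without overlap. HOXA-AS2, which lies in the HOXA cluster of body-pattern genes, had a mean log2 level of 0.13 in WT MDA-MB-231 and 4.2 in WT MDA-MB-468. LINC00665, which both lines express, was at log2 2.56, 2.70 and 2.47 in WT MDA-MB-231 and at 5.50, 5.63 and 5.68 in WT MDA-MB-468. FAM83H-AS1 (log2 fold change 4.45), LINC01057 (3.35), LINC00649 (2.87) and ZNF571-AS1 (2.45) complete the 12 members with the largest excess in MDA-MB-468. All of the 12 but LINC00665 were at or near 0 in WT MDA-MB-231 and could enter the table only through MDA-MB-468. For them the direction was fixed by the table's limit and is no result.

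Other members had the opposite order. LINC00973 was listed at 0 in all 3 WT samples of MDA-MB-468 and at log2 4.90, 4.80 and 5.06 in those of MDA-MB-231. LINC00941, HOXD-AS1 from the HOXD cluster and MAGI2-AS3 were also listed at 0 in WT MDA-MB-468, with mean log2 levels in WT MDA-MB-231 of 3.58, 3.14 and 2.50. LINC00704, now named MANCR for a mitotically associated lncRNA, was at log2 0.93, 1.14 and 1.42 in WT MDA-MB-468 and at 4.66, 4.78 and 4.98 in WT MDA-MB-231, a difference of −3.64 (SE 0.14, limma adjusted p = 1.2e-07). LOXL1-AS1, antisense to the lysyl oxidase-like gene LOXL1 of elastic fibre assembly, was lower in MDA-MB-468 by 3.25 and its partner LOXL1 differed by −3.29 (adjusted p = 2.33e-06). VIM-AS1 differed by −2.67 and vimentin (VIM), the intermediate filament gene that starts beside it, by −8.53. APCDD1L-AS1 (−3.07), MMP24-AS1 (−2.89), HHIP-AS1 (−2.77), VPS9D1-AS1 (−2.76) and LINC00888 (−2.72) complete the 12 largest in this direction. Apart from MMP24-AS1, LINC00704 and LINC00888, these 12 were at or near 0 in WT MDA-MB-468 and could enter the table only through MDA-MB-231. For them the direction was again fixed and is no result. Among the scaffold RNAs, MALAT1 was higher in WT MDA-MB-468 by 0.93 and was called, and NEAT1 differed by −0.39 and was not.

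After SMARCA4 KO few members were called in MDA-MB-468, more were called in MDA-MB-231, and the called genes were different. In MDA-MB-468, 3 of 148 members rose and 0 fell, which is 2.03% of the members beside 2.14% of all genes; the fit adjusted for the replicate number kept 1 of the 3. In MDA-MB-231, 3 rose and 6 fell, 6.08% of the members beside 3.7% of all genes. The 6 that fell are 4.05% of the members, and 1.31% of all genes fell. Adjusted for the replicate number, the fit of MDA-MB-231 called 0 members and 0 of all genes. No member was called in both lines, whereas 38 genes of the whole table were. At an unadjusted p under 0.05, 44 members (29.7%, against 25.1% of all genes) passed in MDA-MB-468, while for MDA-MB-231 the count was 43 (29.1%, against 31.2% of all genes). The median change of the members was 0.08 on the log2 scale in MDA-MB-468, with 101 above 0 and 43 below, beside a median of 0.02 over all genes. In MDA-MB-231 it was 0.00, with 72 above and 70 below, beside −0.01. KO and WT values of MDA-MB-468 did not overlap in 35 members that were higher (23.6%, against 17.5% of all genes) and in 9 that were lower (6.08%, against 13.5%). In MDA-MB-231 they did not overlap in 27 higher members (18.2%, against 16.6% of all genes) and in 26 lower members (17.6%, against 19.4%). Across the 148 members the changes in the 2 lines had r = −0.07, given as a description over genes, which are not independent.

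**Figure D2:**
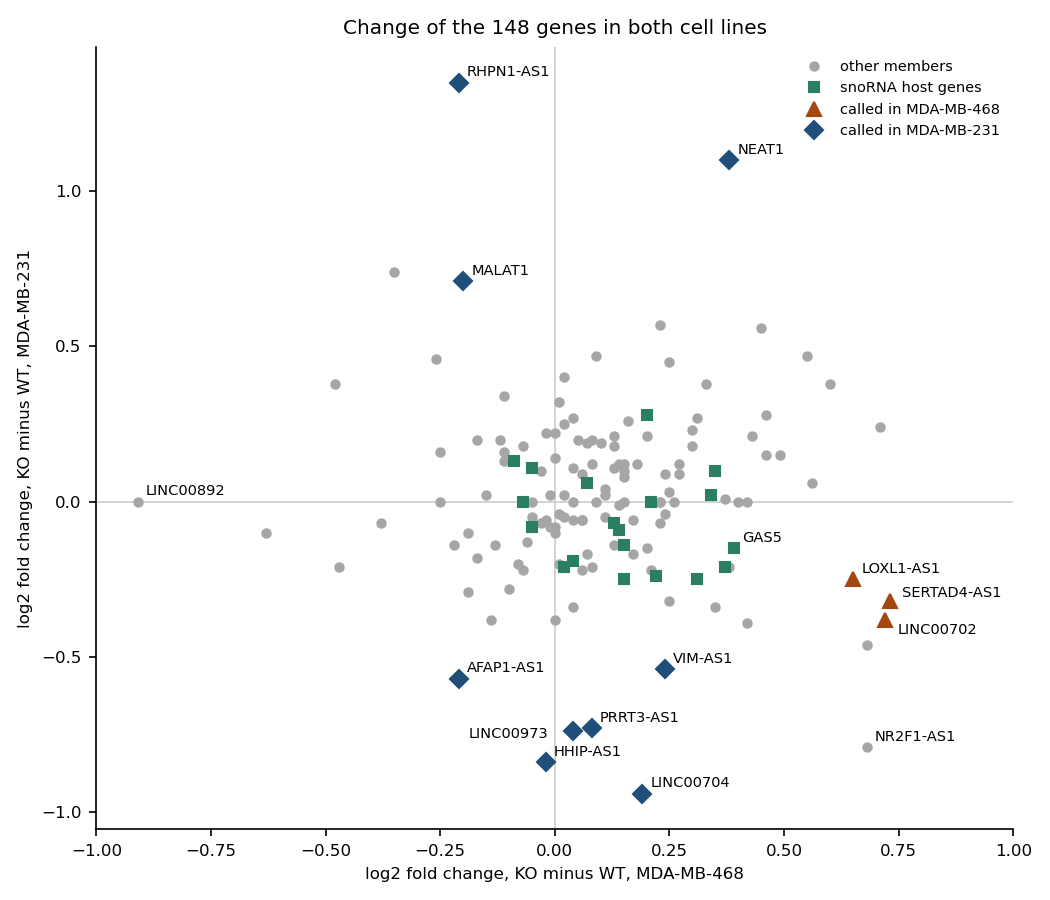
Log2 fold change, KO minus WT, of each of the 148 genes in MDA-MB-468 (horizontal) and MDA-MB-231 (vertical). Triangles are the 3 genes called in MDA-MB-468, diamonds the 9 called in MDA-MB-231 and squares the 19 genes that hold a snoRNA gene; no gene has both called symbols.

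For the members called after KO, the sequence around the annotated start was read where RefSeq gives it, which was the case for 9 of 12. The windows of 300 bases run from 250 bases before the start to 50 after it. Their RefSeq sequences were placed in GRCh37, the build of the reads, by exact match. The 5 windows that hold a searched motif are shown, since they belong to 5 of the members that the KO comparisons turn on, LINC00704 and HHIP-AS1 with the largest falls in MDA-MB-231 among them. Capitals mark TGANTCA or TGACGTCA, the latter being the letters of a cyclic AMP response element. TGANTCA reads the same on both strands apart from the middle base, and it has the letters of an AP-1 site only where that base is C or G.

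LINC00704, chr10:4720213-4720512, minus strand: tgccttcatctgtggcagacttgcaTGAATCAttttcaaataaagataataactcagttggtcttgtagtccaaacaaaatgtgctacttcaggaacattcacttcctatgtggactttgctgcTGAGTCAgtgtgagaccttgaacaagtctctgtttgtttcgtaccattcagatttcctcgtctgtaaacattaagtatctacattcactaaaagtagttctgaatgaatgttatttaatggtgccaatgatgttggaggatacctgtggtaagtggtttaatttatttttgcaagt
LINC00973, chr3:98633160-98633459, plus strand: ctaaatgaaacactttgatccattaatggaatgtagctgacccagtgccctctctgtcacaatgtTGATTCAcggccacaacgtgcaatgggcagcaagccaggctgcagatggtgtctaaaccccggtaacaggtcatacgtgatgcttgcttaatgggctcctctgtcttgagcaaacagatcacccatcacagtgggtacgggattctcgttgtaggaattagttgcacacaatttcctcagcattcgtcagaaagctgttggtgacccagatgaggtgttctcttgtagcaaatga
LINC00702, chr10:4286055-4286354, minus strand: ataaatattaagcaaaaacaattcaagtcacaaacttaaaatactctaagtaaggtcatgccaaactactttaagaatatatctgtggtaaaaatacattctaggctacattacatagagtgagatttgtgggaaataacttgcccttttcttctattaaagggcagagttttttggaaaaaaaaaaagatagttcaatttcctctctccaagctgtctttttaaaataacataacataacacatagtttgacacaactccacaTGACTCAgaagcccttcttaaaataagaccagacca
SERTAD4-AS1, chr1:210407181-210407480, minus strand: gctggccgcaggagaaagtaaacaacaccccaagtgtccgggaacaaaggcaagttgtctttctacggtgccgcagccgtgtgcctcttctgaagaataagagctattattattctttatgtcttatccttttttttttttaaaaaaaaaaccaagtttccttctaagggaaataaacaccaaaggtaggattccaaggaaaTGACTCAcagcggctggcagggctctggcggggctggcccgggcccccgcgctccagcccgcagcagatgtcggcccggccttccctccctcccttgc
HHIP-AS1, chr4:145567122-145567421, minus strand: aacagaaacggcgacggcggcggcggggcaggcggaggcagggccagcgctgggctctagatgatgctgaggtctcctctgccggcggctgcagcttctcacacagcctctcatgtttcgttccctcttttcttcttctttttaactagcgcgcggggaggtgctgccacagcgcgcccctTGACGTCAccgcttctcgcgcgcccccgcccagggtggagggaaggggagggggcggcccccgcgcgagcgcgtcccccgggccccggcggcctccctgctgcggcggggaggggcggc

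TGANTCA lay in the windows of 4 of the 9 called members (LINC00704 with 2 matches, LINC00973, LINC00702 and SERTAD4-AS1). It lay in 14 of the 116 members with a window (12.1%) and in 7.71% of all 35116 RefSeq windows. The matches began 225 and 126 bases before the start of LINC00704, 185 before that of LINC00973, 48 before that of SERTAD4-AS1 and at transcript position 15 of LINC00702. The middle base was C in SERTAD4-AS1 and LINC00702 and G in the nearer match of LINC00704. In the farther match of LINC00704 it was A and in LINC00973 T, so these are not AP-1 letters. All counts and shares of TGANTCA take any middle base. TGACGTCA lay 69 bases before the start of HHIP-AS1 and in 1.85% of all windows. CACGTG, the E-box bound by MYC and related factors, was in 0 of the 9 windows and in 7.26% of all. The 14 members with TGANTCA did not share a direction in MDA-MB-231, where 6 were above 0 and 6 below. In MDA-MB-468, 12 of the 14 (85.7%) were above 0, as were 69 of the 102 members with a window but without the motif (67.6%). These are matches of letters in few windows, and no binding was measured. The RefSeq starts of LINC00973 and HHIP-AS1 differ from the outer ends of the GENCODE genes, at chr3:98699902-98701940 and chr4:145564071-145582509.

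**Figure D3:**
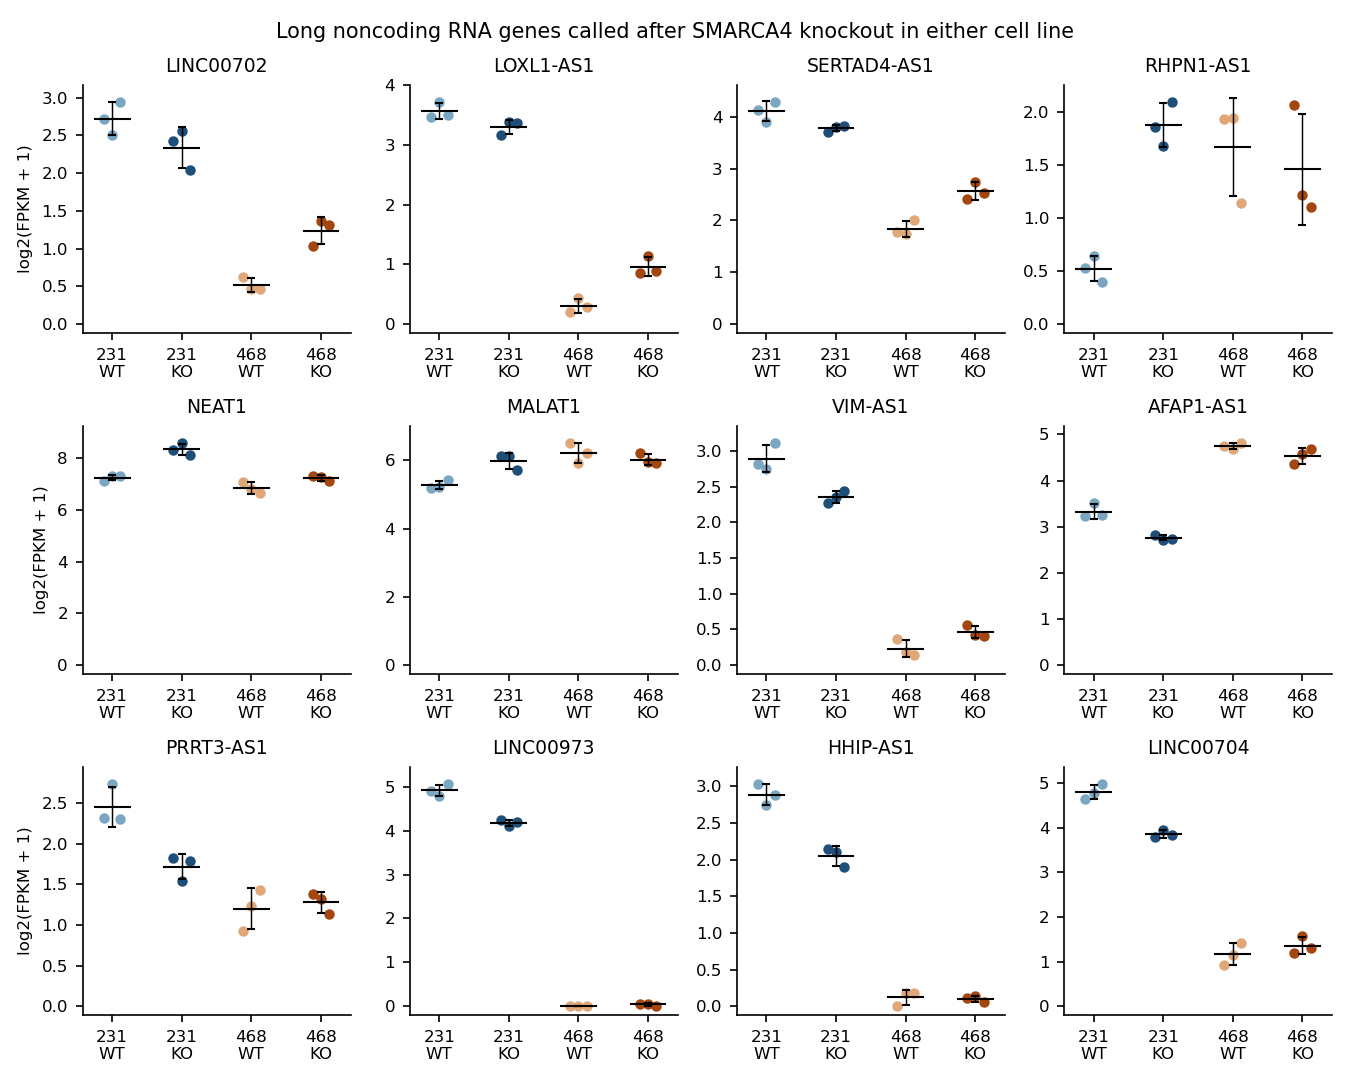
Level of the 12 genes called after KO in either line, as log2(FPKM + 1) in each of 3 samples (points) with the mean (line) and SD (bar), for WT and KO samples of MDA-MB-231 (blue) and MDA-MB-468 (orange). The first 3 panels are the genes called in MDA-MB-468 and the other 9 those called in MDA-MB-231, ordered from the largest rise to the largest fall; each panel has its own scale that includes 0.

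The scaffold RNAs NEAT1 and MALAT1 both rose in MDA-MB-231. NEAT1 (chr11:65190245-65213011), the architectural RNA of paraspeckles, had 138.6, 156.9 and 157.3 FPKM in the WT samples and 319.5, 381.8 and 279.0 FPKM in the KO samples. Every KO sample was above every WT sample, and the KO mean was 217% of the WT mean. The log2 fold change was 1.10 (SE 0.13, limma adjusted p = 0.011). In MDA-MB-468 NEAT1 had 136.2, 110.7 and 99.53 FPKM in WT and 157.1, 154.8 and 137.6 FPKM in KO. These groups did not overlap, but the change of 0.38 (SE 0.13) did not pass (adjusted p = 0.14). MALAT1 (chr11:65265111-65275544), a nuclear RNA known from metastatic lung cancer, had 35.81, 36.03 and 41.77 FPKM in WT MDA-MB-231 and 68.34, 68.94 and 51.32 FPKM in KO, again without overlap. Its change was 0.71 (SE 0.13, adjusted p = 0.033). In MDA-MB-468 the WT samples with 89.54, 60.18 and 72.42 FPKM and the KO samples with 72.28, 60.40 and 59.05 FPKM overlapped, and the change was −0.20 (adjusted p = 0.49). The difference of the changes between the lines was itself past the limits, −0.72 for NEAT1 (adjusted p = 0.025) and −0.90 for MALAT1 (adjusted p = 0.019), where a negative value means that the change was lower in MDA-MB-468. With 1 of the 12 samples left out, the difference for NEAT1 lay between −0.82 and −0.59 and kept an adjusted p under 0.05 in 6 of 12 fits (0.017 to 0.057), and that for MALAT1 kept it in 12 of 12. The highest adjusted p for NEAT1, 0.057, came without the first WT or the second KO sample of MDA-MB-231. For the change in MDA-MB-231 itself, leaving out any single sample kept NEAT1 between 0.98 and 1.21, with adjusted p from 0.026 to 0.05 (the highest without the first KO sample), whereas MALAT1 kept an adjusted p under 0.05 only when the third KO sample was left out (range 0.031 to 0.11).

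Libraries were made from polyadenylated RNA, and MALAT1 and the long form of NEAT1 end without an ordinary poly(A) tail. RMRP and RPPH1, RNA components of the RNase MRP and RNase P enzymes, lack such a tail too. RMRP changed by −0.78 in MDA-MB-231 (SE 0.41, limma adjusted p = 0.26) and RPPH1 by −0.68 (SE 0.41, adjusted p = 0.31). In MDA-MB-468 RMRP changed by 0.17 (SE 0.57, adjusted p = 0.89) and RPPH1 by −0.71 (SE 0.3, adjusted p = 0.21). The part of the poly(A) selection in these values was not tested.

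NEAT1 and MALAT1 are neighbours, 52100 bases apart on the same strand of chromosome 11. Of 9 other measured genes within 100 kb of either, 2 were called in MDA-MB-231, where 3.7% of all genes were called, and both rose. FRMD8, 9249 bases from NEAT1 and known for stabilising the iRhom–ADAM17 sheddase, changed by 0.52 (adjusted p = 0.014). LTBP3, a latent TGF-beta binding protein gene 30486 bases from MALAT1, changed by 1.06 (adjusted p = 0.036). Among the genes not called, the log2 fold change was 0.32 for SLC25A45 (adjusted p = 0.16), 0.14 for DPF2 (adjusted p = 0.28) and 0.33 for EHBP1L1 (adjusted p = 0.073). In MDA-MB-468 none of these genes was called. The neighbourhood was looked at after the values of NEAT1 and MALAT1 were known. The 18 genes for paraspeckle proteins, such as NONO, SFPQ and PSPC1, included no call in either line. Their log2 fold changes ran from −0.22 to 0.37 in MDA-MB-468 and from −0.19 to 0.11 in MDA-MB-231.

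**Figure D4:**
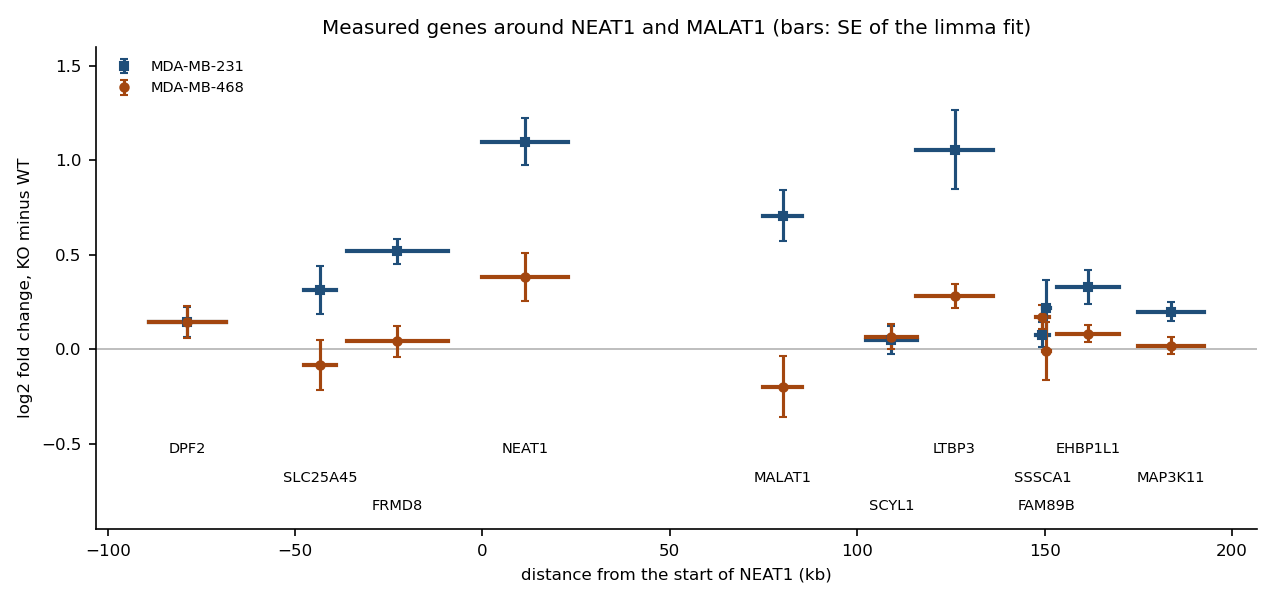
Log2 fold change, KO minus WT, of the measured genes within 100 kb of NEAT1 or MALAT1 against their place in kb from the start of NEAT1 (horizontal bars span each gene, vertical bars are the SE of the limma fit). In MDA-MB-231 (squares) NEAT1 at 1.10, LTBP3 at 1.06, MALAT1 at 0.71 and FRMD8 at 0.52 lie above the rest, and in MDA-MB-468 (circles) no gene was called.

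RHPN1-AS1 had the largest rise of any member in MDA-MB-231. It is an antisense gene on chromosome 8 whose start lies 328 bases from that of RHPN1, a rhophilin gene, on the other strand. It had 0.44, 0.56 and 0.32 FPKM in WT and 2.63, 2.21 and 3.25 FPKM in KO, so the KO samples were all higher, from a level near 0. The change was 1.35 on the log2(FPKM + 1) scale (SE 0.12, adjusted p = 0.0078) and 2.38 with a pseudocount of 0.1, since the deposited scale shrinks the change of low genes. RHPN1 changed by 0.27 (adjusted p = 0.28). In MDA-MB-468 RHPN1-AS1 had 2.81, 2.85 and 1.21 FPKM in WT and 3.17, 1.33 and 1.15 FPKM in KO, with overlap and a change of −0.21 (adjusted p = 0.74). In KO MDA-MB-231, 2 of the 3 values lay within the range of the 6 samples of MDA-MB-468 and the highest lay just above it.

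The 6 members that fell in MDA-MB-231 were all expressed there in WT cells, as a fall requires, and 5 of them were lower in WT MDA-MB-468. HHIP-AS1, LINC00973 and VIM-AS1 were near 0 in MDA-MB-468 and could enter the table only through MDA-MB-231, so for them this order was fixed. LINC00704 (MANCR) had 24.24, 26.45 and 30.53 FPKM in WT and 12.82, 14.57 and 13.47 FPKM in KO, without overlap, and the KO mean was 50.3% of the WT mean (log2 fold change −0.94, SE 0.10, adjusted p = 0.0097). HHIP-AS1, which starts beside the hedgehog-interacting protein gene HHIP, had 7.15, 5.74 and 6.41 FPKM in WT and 3.43, 3.31 and 2.72 FPKM in KO, 49.0% of the WT mean. Its change was −0.84 (SE 0.10, adjusted p = 0.012). LINC00973, an intergenic RNA of chromosome 3, had 28.83, 26.95 and 32.40 FPKM in WT and 18.09, 16.29 and 17.28 FPKM in KO, 58.6% of the WT mean. Its change was −0.74 (SE 0.08, adjusted p = 0.01), and all KO samples were below all WT samples. In MDA-MB-468 LINC00973 was listed at 0 in 4 of 6 samples and at 0.04 FPKM in the others.

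PRRT3-AS1 had 3.96, 5.65 and 3.92 FPKM in WT MDA-MB-231 and 2.54, 1.90 and 2.45 FPKM in KO, and none of 8 measured genes within 100 kb of it was called. AFAP1-AS1, antisense to the actin filament-associated protein gene AFAP1 and known as raised in several carcinomas, had 8.38, 10.43 and 8.51 FPKM in WT and 6.04, 5.61 and 5.69 FPKM in KO. It was the only one of the 6 with more RNA in MDA-MB-468, where WT samples had 25.75, 24.87 and 27.06 FPKM and KO samples 19.37, 22.82 and 24.66 FPKM. VIM-AS1 had 6.06, 5.73 and 7.62 FPKM in WT MDA-MB-231 and 3.81, 4.11 and 4.43 FPKM in KO. The changes of these genes were −0.73 (adjusted p = 0.037), −0.57 (adjusted p = 0.022) and −0.54 (adjusted p = 0.037). In each of the 3 the KO and WT samples did not overlap in MDA-MB-231. They were less steady than the others: when 1 sample was left out, PRRT3-AS1 and VIM-AS1 missed an adjusted p of 0.05 in 6 of 6 fits and AFAP1-AS1 in 4 of 6. LINC00704 and RHPN1-AS1 stayed under it in 6 of 6 fits, and HHIP-AS1 and LINC00973 in 5 of 6, both missing it without the second KO sample (adjusted p = 0.06 and 0.058).

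In MDA-MB-468 the 3 members that rose are at low levels there and higher in WT MDA-MB-231. The table keeps genes by their values over all samples, so LINC00702 and LOXL1-AS1 could be listed only through MDA-MB-231. For these genes the higher level in MDA-MB-231 was fixed by that limit and is no result. LINC00702 had 0.54, 0.38 and 0.38 FPKM in WT and 1.06, 1.58 and 1.48 FPKM in KO, 317% of the WT mean. Its change was 0.72 (SE 0.10, adjusted p = 0.032) and the samples did not overlap. SERTAD4-AS1 had 2.40, 2.31 and 3.03 FPKM in WT and 4.37, 5.73 and 4.72 FPKM in KO, 191% of the WT mean (change 0.73, SE 0.12, adjusted p = 0.038). LOXL1-AS1 had 0.16, 0.36 and 0.21 FPKM in WT and 0.82, 1.21 and 0.85 FPKM in KO, also without overlap (change 0.65, SE 0.10, adjusted p = 0.036). With a block for the replicate number, which KO and WT samples of this line share in their deviations, LOXL1-AS1 kept its call (adjusted p = 0.043) and LINC00702 and SERTAD4-AS1 did not (adjusted p = 0.071 for both). In 5 of 6 fits that left out a single sample no member was called, the exception being the fit without the first KO sample, which called 6. Without genes of low values, for which LINC00702 and LOXL1-AS1 are too low, the 3 calls were SERTAD4-AS1 (0.73, adjusted p = 0.015), ZBED5-AS1 (0.71, adjusted p = 0.034) and LINC00892, which then fell (−0.91, adjusted p = 0.037).

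In MDA-MB-231 the same 3 genes had values on the other side of 0. LINC00702 had 5.58, 4.70 and 6.65 FPKM in WT MDA-MB-231 and 4.36, 4.88 and 3.11 FPKM in KO (change −0.38, adjusted p = 0.19). SERTAD4-AS1 changed by −0.32 (adjusted p = 0.11) and LOXL1-AS1 by −0.25 (adjusted p = 0.13). Neither comparison alone shows a difference between lines, but the difference of the changes passed for all 3, with 1.11 for LINC00702 (adjusted p = 0.0055), 1.05 for SERTAD4-AS1 (adjusted p = 0.0023) and 0.91 for LOXL1-AS1 (adjusted p = 0.0027).

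LINC00892, an X-linked gene, had the lowest change of any member in MDA-MB-468. It had 8.12, 8.98 and 10.34 FPKM in WT and 6.33, 4.09 and 3.19 FPKM in KO, without overlap, and was listed at 0 in all 6 samples of MDA-MB-231. The change of −0.91 (SE 0.22) missed the threshold over all genes (adjusted p = 0.076). ZBED5-AS1 had 4.94, 4.08 and 3.71 FPKM in WT MDA-MB-468 and 8.30, 8.65 and 5.88 FPKM in KO, also without overlap, with a change of 0.71 (adjusted p = 0.067).

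The changes of the 2 lines differed in 23 members, 15.5% of them beside 8.71% of all genes. The change was higher in MDA-MB-468 in 16 (10.8%, against 4.29% of all genes) and lower in 7 (4.73%, against 4.41%). Some members were at or near 0 in 1 line, where no fall could be seen, so their difference rests mainly on the other line. LINC00892 was listed at 0 in every sample of MDA-MB-231. LINC00973, HHIP-AS1 and VIM-AS1 had mean log2 levels of 0, 0.12 and 0.23 in WT MDA-MB-468. Samples at 0 add no spread to the shared estimate. The shares are therefore no support for a property of lncRNAs. NR2F1-AS1, antisense to a nuclear receptor gene and called in neither line alone, had the largest difference above 0, 1.47 (SE 0.30, adjusted p = 0.0097). It had 5.39, 3.92 and 4.54 FPKM in WT and 3.16, 2.18 and 1.53 FPKM in KO MDA-MB-231, all lower, but 0.82, 2.07 and 1.0 FPKM in WT and 2.13, 2.50 and 3.18 FPKM in KO MDA-MB-468, all higher. ARAP1-AS1, antisense to an Arf GTPase-activating gene, had 16.69, 14.42 and 15.18 FPKM in WT and 10.40, 10.42 and 12.03 FPKM in KO MDA-MB-231, a change of −0.46 under the fold limit (adjusted p = 0.029). In MDA-MB-468 it had 6.99, 11.28 and 6.35 FPKM in WT and 15.54, 11.28 and 13.48 FPKM in KO. ARHGAP5-AS1 had the reverse order, with KO above WT in MDA-MB-231 (6.76, 10.07 and 10.67 FPKM in WT, 11.65, 12.28 and 12.14 FPKM in KO) and below it in MDA-MB-468 (4.61, 4.18 and 3.60 FPKM in WT, 3.48, 2.88 and 1.85 FPKM in KO).

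The snoRNA hosts moved little, and no host was called in either line. In MDA-MB-468, 15 of 19 hosts were above 0, with a median of 0.15 and a range from −0.09 to 0.39. Of all 11529 genes, 6177 were above 0 there, with a median of 0.02. KO and WT samples did not overlap in 8 hosts that were higher, beside 17.5% of all genes, and in none that was lower, beside 13.5%. In MDA-MB-231, 13 of 19 were below 0, with a median of −0.08 and a range from −0.25 to 0.28. Of all genes, 5935 were below 0 in that line, with a median of −0.01. There the samples of 4 hosts did not overlap, all lower, a share near the 19.4% of all genes. The count in MDA-MB-468 lay between 13 and 17 when any sample was left out, and the median between 0.08 (without the first WT sample) and 0.22 (without the third). That in MDA-MB-231 lay between 9 and 14, with 9 and a median of 0.01 without the third WT sample, and it was 11 under either other scaling.

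**Figure D5:**
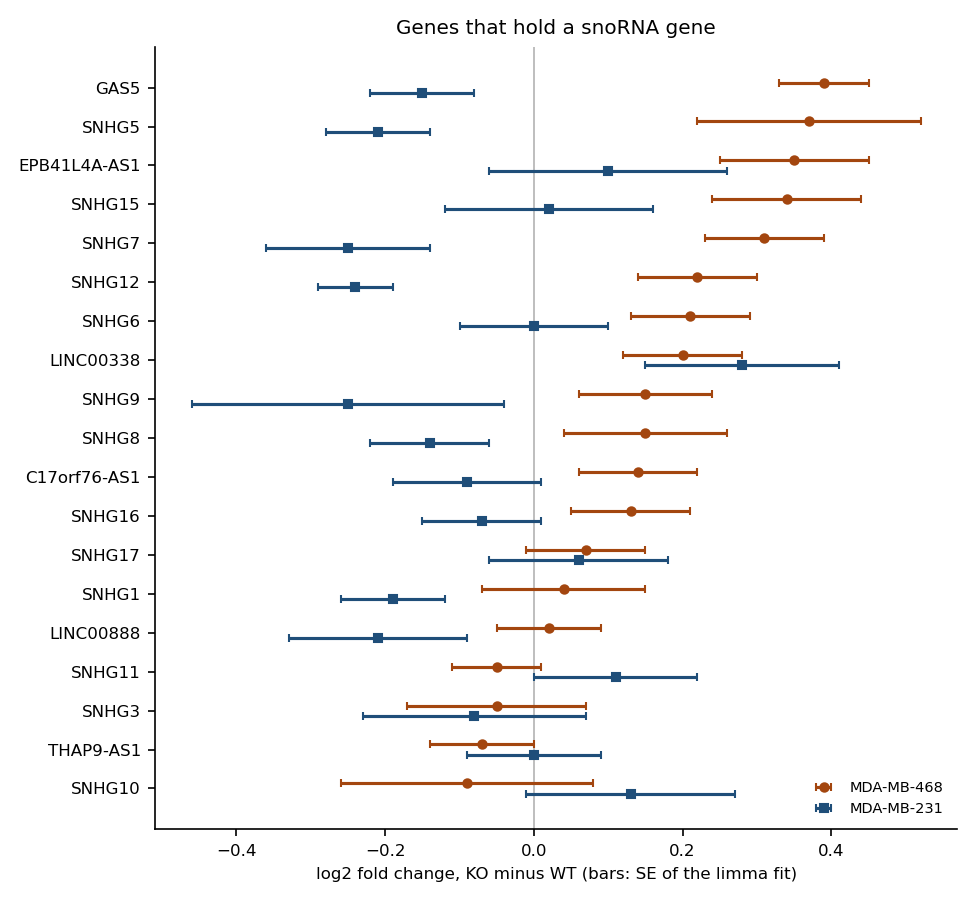
Log2 fold change, KO minus WT, of the 19 genes that hold a snoRNA gene, in MDA-MB-468 (circles) and MDA-MB-231 (squares), ordered by the value in MDA-MB-468; bars are the SE of the limma fit. GAS5 at 0.39 is highest in MDA-MB-468, where 15 genes lie above 0, and 13 lie below 0 in MDA-MB-231.

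GAS5 (chr1:173827697-173838020), named for its rise in growth-arrested cells and host of 11 snoRNAs, was the most distinct of them. It had 322.3, 327.1 and 349.7 FPKM in WT MDA-MB-468 and 412.6, 456.0 and 439.5 FPKM in KO, without overlap. The change of 0.39 (SE 0.06, adjusted p = 0.036) was under the fold limit, and the KO mean was 131% of the WT mean. The adjusted p was 0.058 with the replicate block, and it was under 0.05 in 1 of 6 fits without a sample. In MDA-MB-231 it had 192.5, 183.6 and 206.6 FPKM in WT and 180.1, 164.7 and 179.7 FPKM in KO, all lower, with a change of −0.15 (adjusted p = 0.18). The difference of the changes was 0.54 (adjusted p = 0.0059).

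SNHG5 had 52.74, 71.20 and 74.52 FPKM in WT MDA-MB-468 and 76.42, 86.28 and 92.90 FPKM in KO, and 338.9, 320.2 and 371.6 FPKM in WT MDA-MB-231 and 300.6, 286.4 and 300.6 FPKM in KO. It did not overlap in either line, and its changes of 0.37 and −0.21 differed by 0.58 (adjusted p = 0.041). With 1 sample left out this difference ran from 0.43 to 0.68 and kept an adjusted p under 0.05 in 4 of 12 fits (0.028 to 0.087). SNHG7 had changes of 0.31 and −0.25 and differed by 0.57 (adjusted p = 0.024), which stayed under 0.05 in 6 of 12 such fits (0.0092 to 0.06). SNHG12 had adjusted p = 0.038 in MDA-MB-231 at a change of −0.24, and 0.22 in MDA-MB-468 (adjusted p = 0.18). The remaining SNHG genes had an adjusted p of at least 0.12 in either line, among them SNHG1 (0.04 and −0.19), SNHG3 (−0.05 and −0.08), SNHG6 (0.21 and 0.00), SNHG8 (0.15 and −0.14), SNHG9 (0.15 and −0.25), SNHG10 (−0.09 and 0.13), SNHG11 (−0.05 and 0.11), SNHG15 (0.34 and 0.02), SNHG16 (0.13 and −0.07) and SNHG17 (0.07 and 0.06), each given as the change in MDA-MB-468 and then in MDA-MB-231.

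Many snoRNA hosts are known to start with a C followed by pyrimidines, a feature shared with ribosomal protein mRNAs. At the RefSeq start, a C and 4 pyrimidines were found in 2 of 16 hosts with a window (12.5%, against 4.07% of all windows), in capitals below with 10 bases before the start. The search began at the annotated first base alone, so a start that lies some bases away was not counted.

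SNHG5, chr6:86388432-86388461, minus strand: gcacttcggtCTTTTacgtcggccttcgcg
SNHG12, chr1:28908366-28908395, minus strand: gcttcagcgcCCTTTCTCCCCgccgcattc

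Proteins that bind the snoRNAs were taken as a companion list. Of 12 core and assembly proteins of the box C/D and H/ACA particles, 10 were in the table. In MDA-MB-468, 9 of 10 were above 0 with a median of 0.11, and in MDA-MB-231 9 of 10 were below 0 with a median of −0.12. Of all 11529 genes, 6177 were above 0 in MDA-MB-468 and 5935 below 0 in MDA-MB-231. The counts are a description, since genes of a list are not independent. None was called. The values for FBL, the methyltransferase fibrillarin, were 0.25 and 0.04, and for NOP56, a core protein of the C/D particle, 0.08 and −0.29 (adjusted p = 0.044 in MDA-MB-231). Host transcripts of this kind are degraded by nonsense-mediated decay, and none of 17 genes for its factors, such as UPF1 and SMG1, was called. Their changes ran from −0.09 to 0.28 in MDA-MB-468 and from −0.15 to 0.24 in MDA-MB-231.

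Each antisense gene was set beside the gene named before -AS. The labels' protocol names a stranded library kit, and the strand setting of the counting is not given in the sources used here, so reads of partners that overlap may not have been told apart. The table held both partners in 65 cases. In MDA-MB-468, 41 pairs changed to the same side of 0 (r = 0.35 across pairs), and in MDA-MB-231 35 did (r = 0.28). Of pairs chosen by overlap in the annotation, 45 and 35 of 66 did. These counts are descriptive: no share for unrelated genes stands beside them, and some genes occur in several pairs. In MDA-MB-468 more members were above 0 than below, which adds pairs on the same side. In no pair were both partners called.

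The named pairs went both ways. VIM-AS1 and VIM, which overlap by 1778 bases, changed by −0.54 and −0.39 in MDA-MB-231 (adjusted p = 0.037 and 0.031) and by 0.24 and 0.42 in MDA-MB-468 (adjusted p = 0.15 and 0.21). LOXL1-AS1 and LOXL1, with 2260 bases of overlap, changed by 0.65 and 0.83 in MDA-MB-468 (adjusted p = 0.036 and 0.091). ADIRF-AS1 and the adipogenesis regulator ADIRF changed by 0.46 and 0.65 in MDA-MB-231 (adjusted p = 0.019 and 0.0051), where only ADIRF passed the fold limit. In these pairs the partners had the same sign.

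AFAP1-AS1 and AFAP1 had opposite signs in MDA-MB-231, −0.57 and 0.39 (adjusted p = 0.022 and 0.04), although they overlap by 20215 bases. EPB41L4A-AS1 changed by 0.35 in MDA-MB-468 (adjusted p = 0.11) while EPB41L4A, a band 4.1 family gene, fell by 0.68 (adjusted p = 0.014). SERTAD4 fell by 0.67 in MDA-MB-231 (adjusted p = 0.015), where SERTAD4-AS1 changed by −0.32, and in MDA-MB-468 SERTAD4 changed by 0.20 (adjusted p = 0.5). Some partners changed without the antisense gene. GAS6, the ligand of the AXL receptor kinase, rose by 1.16 in MDA-MB-468 (adjusted p = 0.016), and GAS6-AS2, whose start lies 36 bases away, changed by 0.15 (adjusted p = 0.2). FAM83H, a keratin-organising gene, rose by 1.09 in MDA-MB-231 (adjusted p = 0.01), and FAM83H-AS1 changed by 0.18 (adjusted p = 0.29).

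Of 20 other well known lncRNA genes in the table that the name rule does not take, 3 rose in MDA-MB-231 (2.39% of all genes rose there), 1 rose in MDA-MB-468 (1.33% of all genes), and none fell. TINCR, known from keratinocyte differentiation, rose by 0.58 in MDA-MB-468 (adjusted p = 0.033) and was near 0 in MDA-MB-231. UCA1, first known from bladder carcinoma, rose by 1.43 in MDA-MB-231 (adjusted p = 0.0078), PCAT6 by 0.65 (adjusted p = 0.0082) and LUCAT1 by 0.54 (adjusted p = 0.015).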

How the data were processed

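RNA-seq of poly(A) RNA was measured in 12 samples, 3 WT and 3 SMARCA4 KO of each line. Per the study's methods the authors used Trimmomatic for trimming, STAR in 2-pass mode for alignment to hg19 and RSEM for the gene levels; the submitters' processing notes also name STAR, RSEM and hg19. The deposited values are log2 of FPKM with a pseudocount of 1, for 11529 genes; no counts were used, and all 12 columns were mapped by their labels. The members and lists were chosen with earlier results of these data known; the grouping as snoRNA hosts, the neighbours within 100 kb and the promoter windows were chosen after values were seen.

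Within each line, limma 3.58.1 (R 4.3.3; lmFit, eBayes without trend) was fitted to all genes, with Benjamini-Hochberg adjustment over all of them and limits of 0.05 and 0.5. The difference of the KO changes came from 1 fit of all 12 samples in 4 groups, and the WT comparison from the 6 WT samples. The fit was tested on simulated data. In MDA-MB-468, KO and WT samples of the same replicate number deviated together (r = 0.25, 0.16 and 0.12), so blocked values stand beside its calls. In MDA-MB-231 they did not (r = −0.05, 0.07 and −0.11), although these samples also share their p numbers. So few values cannot settle whether samples were paired.

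Named were MALAT1, NEAT1, GAS5 and all SNHG genes; the called members, and where over 12 were called in a direction, the 12 largest without overlap between groups; the 6 highest of each WT line; antisense pairs with a call after KO; and called genes of the companion lists. LINC00892, ZBED5-AS1 and the chromosome 11 neighbours were named in the KO comparisons after their values were seen. Genes were placed with GENCODE v44 lifted to GRCh37, which matched 141 of 148 members (39 by an older symbol), and typed with RefSeq, which matched 144. Alternatives were another pseudocount, filters on low values, an intensity trend, other scalings, blocks, other limits and leaving out each sample.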

Additional observations from a re-analysis of the deposited data

Results flagged for a closer look

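In 23 members the change after KO differed between the lines by the interaction term of the limma fit over all 12 samples (adjusted p under 0.05 and a difference beyond 0.5), and each was listed for that difference of the log2 fold changes, MDA-MB-468 minus MDA-MB-231. The 16 differences above 0 were 1.47 for NR2F1-AS1, 1.14 for ARAP1-AS1, 1.13 for LINC00704, 1.11 for LINC00702, 1.05 for SERTAD4-AS1, 0.91 for LOXL1-AS1, 0.82 for HHIP-AS1 and for PRKCQ-AS1, 0.81 for PRRT3-AS1, 0.78 for VIM-AS1, 0.77 for LINC00973, 0.59 for NCBP2-AS2, 0.58 for SNHG5, 0.57 for SNHG7 and for ATP6V0E2-AS1, and 0.54 for GAS5. The 7 below 0 were −1.57 for RHPN1-AS1, −1.09 for NICN1-AS1, −0.91 for LINC00892, −0.90 for MALAT1, −0.86 for ARHGAP5-AS1, and −0.72 for ADIRF-AS1 and for NEAT1. Adjusted p ran from 0.00096 for LINC00973 to 0.048 for NICN1-AS1. LINC00973, HHIP-AS1, VIM-AS1 and LINC00892 were at or near 0 in 1 line, where no fall could be seen. Samples at 0 add no spread to the estimate that all 12 share, which lowers such p-values. Of the 12 fits that each left out 1 sample, the adjusted p was under 0.05 in 3 for NICN1-AS1 and for PRKCQ-AS1, in 4 for ARHGAP5-AS1 and for SNHG5, in 6 for NEAT1 and for SNHG7, in 9 for NCBP2-AS2 and for PRRT3-AS1, in 11 for LINC00892 and in 12 for each of the other 14.

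For NICN1-AS1 the WT and KO samples of MDA-MB-231 did not overlap (1.98, 2.94 and 3.43 FPKM against 4.24, 5.55 and 6.02), and those of MDA-MB-468 did. PRKCQ-AS1 had 6.05, 8.79 and 7.17 FPKM in WT and 9.45, 10.42 and 10.43 FPKM in KO MDA-MB-468, and its groups in MDA-MB-231 overlapped. NCBP2-AS2, now typed as protein coding, had 15.56, 17.25 and 17.48 FPKM in WT and 23.44, 23.77 and 19.20 FPKM in KO MDA-MB-468, without overlap.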

How the results depend on the processing

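In MDA-MB-468 the 3 calls became 5 with a pseudocount of 0.1, 8 in 1 fit of all samples, 9 at an unadjusted p and 0 with a fold limit of 1; blocked by replicate number, 1 was left, and blocked by the p number of the descriptions, which the labels do not explain, 0 (0 of all genes too). Leaving out 1 sample gave 0 to 6: 6 without the first KO sample and 0 without any of the others. Over all genes these fits called 0 to 474 and the filters on low values 411 and 424, against 247, and only 1 of the 3 members called under either filter was shared. In MDA-MB-231 the 9 calls became 13 with a pseudocount of 0.1, 12 with either filter on low values or at an unadjusted p, 11 in 1 fit of all samples, 10 under either other scaling, 2 with a fold limit of 1, and 3 to 7 without 1 sample (5 without WT sample 2 or 3, 4 without KO sample 1, 3 without KO sample 2). In that line KO and WT samples of a replicate number also share the p number of the descriptions, but their deviations showed no common pattern. Whether they were paired cannot be settled, and the replicate block called 0 members and 0 of all genes. The 23 differences between lines became 7 with a fold limit of 1 and ran from 15 (without the first WT sample of MDA-MB-468 or the second KO sample of MDA-MB-231) to 25; the replicate block kept 21. The 115 WT differences became 72 with a fold limit of 1 and ran from 106 (without members typed as protein coding) to 120 (pseudocount of 0.1) under the others. The medians over all 148 members moved by less than the spread of the samples' medians, and the counts of pairs by less than 1.5 times. The median of the snoRNA hosts moved by more than that spread (0.052 in MDA-MB-468, 0.068 in MDA-MB-231): from 0.15 to between 0.08 and 0.22 in MDA-MB-468, and from −0.08 to 0.01 in MDA-MB-231 without the third WT sample. The cause of these shifts was not tested, apart from the stricter limits and the smaller number of samples or genes.

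Some uncalled SNHG values near 0 changed sign when a sample was left out: in MDA-MB-468 SNHG1 (−0.06, −0.01; range −0.06 to 0.12), SNHG10 (0.04; −0.24 to 0.04) and SNHG3 (0.01, 0.02; −0.17 to 0.02), and in MDA-MB-231 SNHG15 (−0.10, −0.07; −0.10 to 0.11), SNHG17 (−0.03, −0.02; −0.03 to 0.14), SNHG3 (0.07; −0.18 to 0.07) and SNHG6 (0.08, 0.06; −0.06 to 0.08, and 0.04 under both other scalings). With no counts, no limit of detection can be given, and changes of members below about 1 FPKM depend on the pseudocount.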

Other observations

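Rows named after sequenced clones, many of which are unnamed noncoding genes, are outside the name rule and were counted for their values alone. There were 590 of them. In MDA-MB-468, 4 were called higher after KO and 5 lower (1.53%, against 2.14% of all genes), and in MDA-MB-231 11 were higher and 6 lower (2.88%, against 3.7%). The change differed between lines in 4.92% of them, against 8.71% of all genes. WT MDA-MB-468 and WT MDA-MB-231 differed in 75.8% of them, against 64.1%.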
